A study of Mus musculus with 31 samples.

Results

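Endothelial cells line the capillaries of the brain and, joined by tight junctions, form the blood-brain barrier. The transcripts of 10 genes that mark these cells and this barrier (Cldn5, Pecam1, Slc2a1, Abcb1a, Tek, Kdr, Flt1, Erg, Vwf and Ocln) were followed in the hippocampus of Glud1 transgenic (Tg) and wild-type (wt) mice. Members were taken by gene symbol alone, and 18 of the 45037 mouse probe sets on the arrays are listed for them. Of these probe sets 17 passed the filter on low signals, so all 10 genes were among the 12844 genes tested. The mice were C57BL/6 males. Tg mice carry additional Glud1, which encodes the mitochondrial enzyme glutamate dehydrogenase 1, and over-express it only in neurons of the central nervous system. The wt controls were of matched age and strain, and nothing further was given to either genotype. Mice were 10 days, 4.5, 9, 14.5 or 20 months old, with 3 mice for each genotype and age, except for 4 wt mice at 10 days, giving 31 arrays in all.

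In the brain, sealed junctions stop solutes from passing between endothelial cells. Carriers such as the glucose transporter then bring nutrients across the cells, while pumps return lipophilic compounds to the blood. Vascular endothelial growth factor (VEGF) and the angiopoietins act on receptor tyrosine kinases of these cells during vessel growth, which in the rodent brain continues after birth, and Wnt ligands from neural cells induce barrier properties.

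The values below are log2 signals after quantile normalisation, a scale on which the median of each array was 6.84. Differences are log2 differences with their standard error (SE) from limma, averaged over both genotypes unless 1 genotype is named. Each p value carries a Benjamini-Hochberg correction for the 26877 probe sets tested, and a gene rose or fell where the adjusted p was under 0.05. Where a gene has several probe sets, the brightest on average stands for it. Signals of different probe sets cannot be set against each other as amounts of RNA. The hippocampus was homogenised whole, so fewer endothelial cells and less RNA per endothelial cell cannot be told apart.

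Array quality differed with age. The Gapdh 3' to 5' ratio of the 6 arrays at 4.5 months lay between -0.08 and 0.02 on the log2 scale, above the -0.14 or less of all other arrays (exact permutation test, two-sided, adjusted p = 1.63e-05, n = 6 against 25). The beta-actin 3' to 5' ratio at 9 months was 0.71 to 0.96, against at most 0.55 on all other arrays (exact permutation test, two-sided, adjusted p = 1.63e-05, n = 6 against 25). Smaller shifts were a lower Gapdh ratio at 20 months (-0.46 to -0.43, adjusted p = 2.17e-05 by the same exact permutation test) and a lower beta-actin ratio at 14.5 months (0.32 to 0.40, adjusted p = 0.0024, exact permutation test). Over all ages together neither ratio differed beyond its spread between Tg and wt (permutation test, two-sided, adjusted p = 0.992 for Gapdh and 0.732 for beta-actin, 12 comparisons in all). Genotype was shuffled across ages there, so the age shifts add to the spread and a difference at 1 age can be missed. At 9 months the beta-actin ratio was 0.71 to 0.76 in Tg and 0.77 to 0.96 in wt, ranges that did not overlap. The highest deposited signal on an array was 22625.8 to 26606.4 at 14.5 months and no lower than 31048.7 on any other array. Array medians before normalisation were 120.3 to 140.0 at 9 months and 104.5 to 113.8 at 14.5 months. Age and array quality therefore cannot be told apart. Counts of the genes that differed from 10 days are given for each later age. For the difference of 20 from 4.5 months, the genes that changed with 9 months as the start are named. Neuronal markers were present throughout, with a mean over 10 markers of 12.54 to 13.22. Of the other endothelial markers Cdh5, Tie1, Esam, Emcn and Egfl7 were measured, and the differences of Cdh5 and Esam alone are given below. Cdh5 and Esam were named after their values were seen, so they do not show how these markers moved as a set. Choroid plexus epithelium, a tissue next to the hippocampus, gave a mean over 9 markers of 5.46 to 11.23 on the arrays, and none of the 9 passed between neighbouring ages or from 4.5 to 20 months.

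**Figure D1:**
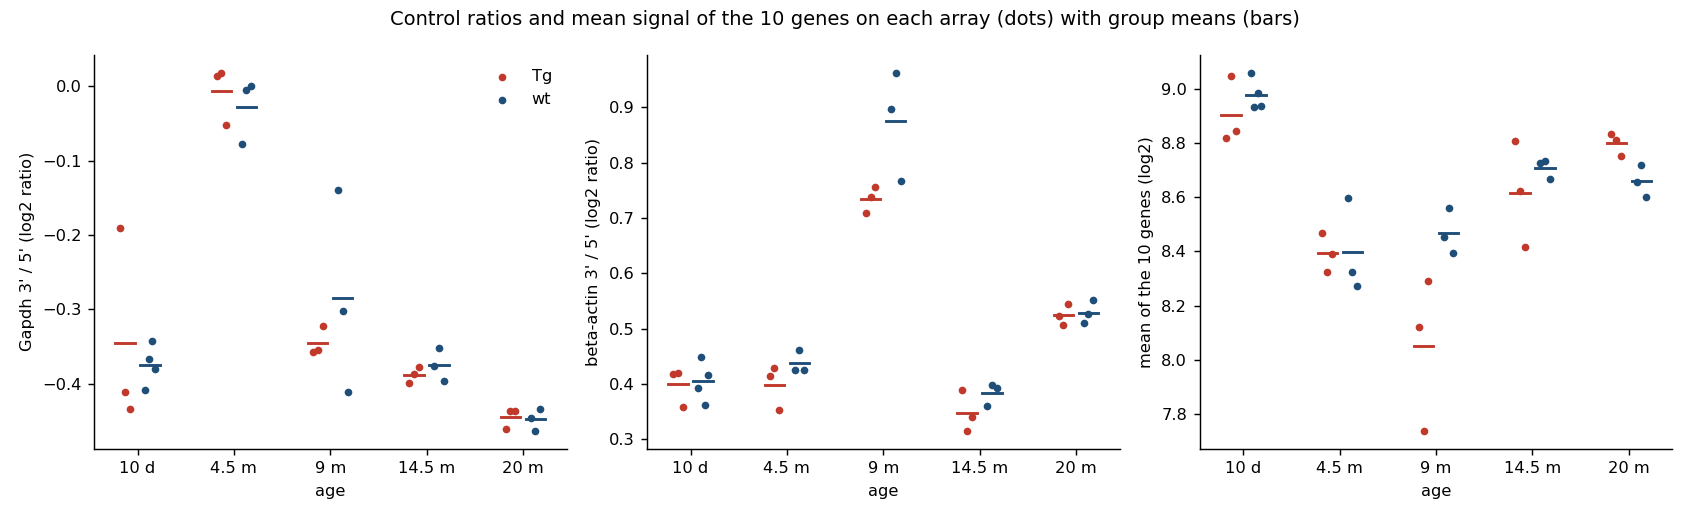
Control ratios and mean signal of the 10 genes on each array, by age. The left and middle panels show the log2 ratio of the 3' to the 5' probe set of Gapdh and beta-actin, and the right panel the mean log2 signal of the 10 genes. Dots are arrays and bars group means, with Tg in red and wt in blue. Gapdh ratios stood apart at 4.5 months and beta-actin ratios at 9 months, the age at which the mean of the 10 genes, Erg included, reached its lowest value, 7.74 in a Tg mouse.

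Promoter sequences are shown for both junction genes and both transport genes, which moved in opposite directions between 10 days and 4.5 months. Each runs over the 250 bases before the annotated transcript start in RefSeq (GRCm38.p6), and all 4 windows lie outside the annotated gene. Capitals mark the match to the hypoxia motif ACGTG in Slc2a1, the only match among the motifs searched in these windows. Cldn5 lies at chr16:18776597-18776846 on the plus strand, Ocln at chr13:100552719-100552968 on the minus strand, Slc2a1 at chr4:119108495-119108744 on the plus strand and Abcb1a at chr5:8566841-8567090 on the plus strand.
Cldn5: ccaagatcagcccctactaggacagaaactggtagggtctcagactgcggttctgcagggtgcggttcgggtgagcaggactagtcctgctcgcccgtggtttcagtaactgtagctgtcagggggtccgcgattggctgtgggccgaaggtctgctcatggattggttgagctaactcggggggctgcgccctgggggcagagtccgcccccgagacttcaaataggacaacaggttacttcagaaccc
Ocln: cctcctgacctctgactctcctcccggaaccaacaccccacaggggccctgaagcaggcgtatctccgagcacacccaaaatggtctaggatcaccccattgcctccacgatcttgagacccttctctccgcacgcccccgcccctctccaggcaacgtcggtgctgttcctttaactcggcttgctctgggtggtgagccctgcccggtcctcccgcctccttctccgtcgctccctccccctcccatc
Slc2a1: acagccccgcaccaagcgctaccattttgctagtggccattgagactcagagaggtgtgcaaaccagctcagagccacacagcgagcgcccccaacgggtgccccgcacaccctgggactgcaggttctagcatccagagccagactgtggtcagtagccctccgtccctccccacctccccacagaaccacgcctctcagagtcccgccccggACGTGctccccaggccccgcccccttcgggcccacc
Abcb1a: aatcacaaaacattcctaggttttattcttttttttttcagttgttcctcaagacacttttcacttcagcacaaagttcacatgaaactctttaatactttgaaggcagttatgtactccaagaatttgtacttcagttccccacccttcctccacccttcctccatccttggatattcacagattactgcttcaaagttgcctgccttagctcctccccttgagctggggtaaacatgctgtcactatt

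RefSeq promoters were given for 8 of the 10 genes, with 11 windows among them. Pecam1 and Vwf had no entry in the table used. Motifs were searched on both strands. The ETS motifs CCGGAAG and GGAAGT, which share the bases GGAAG, are bound by the family that includes Erg. The first was in none of the 11 windows and in 6.91% of all 32851 promoters. The second was in the windows of Kdr and Flt1, 217 to 212 and 52 to 47 bases before the start, and in 19.7% of all promoters. The hypoxia motif ACGTG, found in Slc2a1 at 36 to 32 bases before the start, was in 16.6% of all promoters. TATAAA was in Flt1, 31 to 26 bases before the start, and in 1 of 3 windows of Erg, against 12.4% of all. The Wnt effector motif ATCAAAG (3.21% of all promoters) and the SOX motif ACAATGG (3.02%) were in none of the 11. The share of G and C bases ran from 40.4% in Abcb1a to 66.4% in Slc2a1 among the 4 windows shown, beside a median of 52.4% over all promoters.

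All 10 genes differed over the 5 ages by limma's F-test, as did 87.4% of all genes tested. Between 10 days and 4.5 months 6 of the 10 fell (Cldn5, Vwf, Kdr, Erg, Pecam1 and Ocln), while 35.5% of all genes tested fell. Slc2a1, Abcb1a and Flt1 rose, 3 of 10 beside 31.2% of all genes. The median difference of the 10 genes was -0.52 and that of all genes -0.04. With 9 months in place of 4.5 months 7 genes fell, Tek being added (37.5% of all genes fell), and 2 rose, Slc2a1 and Abcb1a (29.7% of all rose). With 14.5 months 3 fell, Cldn5, Kdr and Erg (33% of all genes), and the same 2 rose (30.1% of all genes). With 20 months in its place 4 fell, Cldn5, Kdr, Erg and Tek (33% of all genes), and the same 2 transport genes rose (29.9% of all genes). By their brightest probe sets Cldn5, Kdr and Erg were thus below their level at 10 days at each of the 4 later ages. Slc2a1 and Abcb1a were above theirs. The other probe set of Abcb1a, 1419758_at, differed by 0.02 between 10 days and 9 months (adjusted p = 0.95). Erg at 9 months had a mean of 4.07 in Tg and 6.77 in wt, beside 7.36 and 7.50 at 10 days. The 4 comparisons with 10 days share the arrays of that age.

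**Figure D2:**
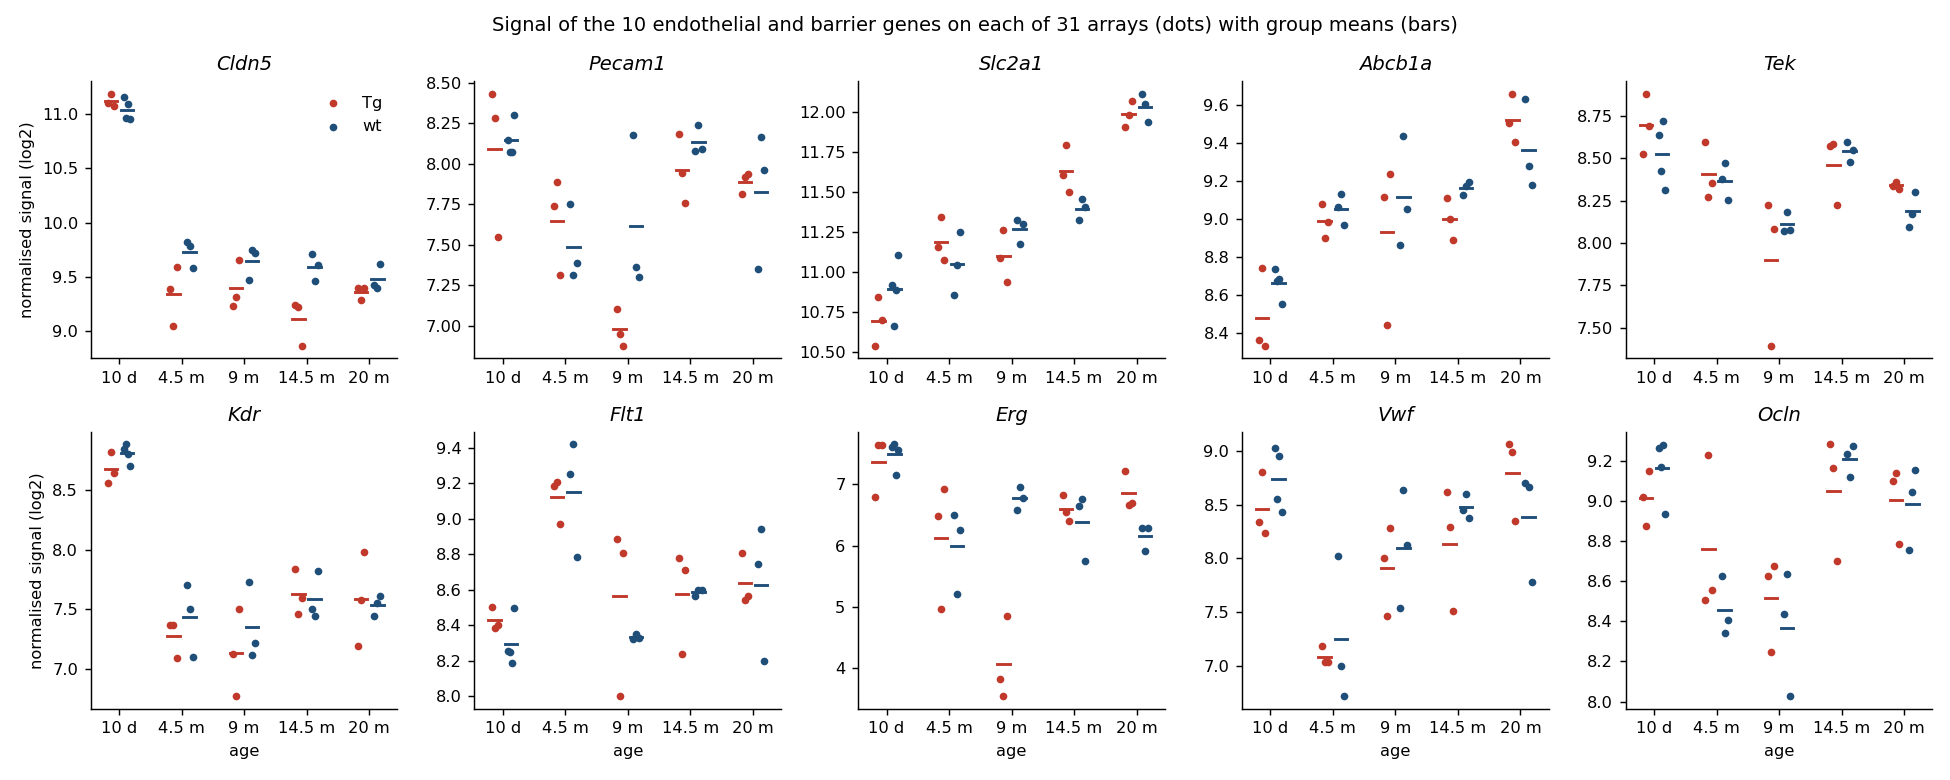
Normalised log2 signal of each of the 10 genes by age on its own vertical scale. Each dot is an array, Tg in red and wt in blue, and bars are group means of 3 mice, or 4 for wt at 10 days. Cldn5 and Kdr stood high at 10 days alone, Slc2a1 climbed to 20 months, and the Erg signals of the 3 Tg mice at 9 months lay far below those of the 3 wt mice.

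Cldn5 encodes claudin-5, the main claudin of the tight junction strands in brain endothelium. Its signal at 10 days ran from 10.95 to 11.19 with a median of 11.09. At 4.5 months the lowest was 9.05, the median 9.59 and the highest 9.83, and at 20 months these were 9.29, 9.39 and 9.62. Every array at 10 days thus lay above all 24 older arrays, whose highest value was 9.83. The fall by 4.5 months was 2.92-fold (log2 difference -1.54, SE 0.09, adjusted p = 1.1e-15), with 6 arrays against 7. From 4.5 months on the neighbouring ages in the order of levels did not differ beyond their spread, and the difference of 20 from 4.5 months was -0.12 (95% interval -0.30 to 0.06).

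Ocln encodes occludin, a membrane protein of the same junctions that many epithelia also make. Signals at 10 days were 8.87, 9.15 and 9.28 at the lowest, the median and the highest, and at 4.5 months 8.34, 8.53 and 9.23. A single Tg mouse gave the 9.23, and the other 5 mice of that age lay below all mice of 10 days. By 14.5 months the range was 8.70 to 9.28, overlapping that at 10 days. Ocln fell by 0.48 on the log2 scale to 4.5 months (SE 0.12, adjusted p = 0.0013) and rose by 0.39 from 4.5 to 20 months (SE 0.13, adjusted p = 0.016). The rise lost its call without Tg mouse 1 (0.32, adjusted p = 0.06) or Tg mouse 3 (0.33, adjusted p = 0.052) of 4.5 months. From 10 days to 14.5 months the difference was 0.04 (adjusted p = 0.79), so that the fall did not extend to that age. A second probe set, 1440220_at, gave -0.18 to 4.5 months (adjusted p = 0.38) and rose by 0.57 from 4.5 to 20 months (adjusted p = 0.011). The choroid plexus markers had a median difference of 1.82 from 4.5 to 20 months, with 0 of 9 called by limma, and their part in the rise of Ocln was not tested.

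Slc2a1 encodes GLUT1, the glucose carrier of the barrier, which astrocytes and choroid plexus also hold. At 10 days its signal was 10.54 at the lowest, 10.85 at the median and 11.11 at the highest. The median was 11.11 at 4.5 months, 11.22 at 9, 11.48 at 14.5 and 12.02 at 20 months. All 6 arrays at 20 months, from 11.91 to 12.12, lay above all 25 others, the highest of which was 11.80. It rose by 0.33 to 4.5 months (SE 0.07, adjusted p = 3.1e-04), then by 0.33 from 9 to 14.5 months (SE 0.08, adjusted p = 5.9e-04) and by 0.49 from 14.5 to 20 months (SE 0.08, adjusted p = 7.5e-06). In all, the level at 20 months was 2.32-fold that at 10 days. Between 4.5 and 9 months the difference was 0.06 (95% interval -0.09 to 0.22), although both other probe sets fell there, 1426599_a_at by 0.18 (adjusted p = 0.02) and 1426600_at by 0.28 (adjusted p = 9.7e-04). From 14.5 to 20 months 1426599_a_at rose by 0.37 (adjusted p = 2.8e-05), while 1426600_at gave -0.13 (adjusted p = 0.14). All 3 probe sets rose from 10 days to 4.5 months and from 4.5 to 20 months.

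Abcb1a encodes P-glycoprotein, the pump that expels many drugs at the luminal membrane. Its signal ran from 8.34 to 8.74 at 10 days, from 8.90 to 9.13 at 4.5 months and from 9.18 to 9.66 at 20 months, 3 ranges that did not overlap. Arrays at 9 months were spread more widely, from 8.45 to 9.44. The rise to 4.5 months was 0.45 (SE 0.11, adjusted p = 7.0e-04) and that from 4.5 to 20 months 0.42 (SE 0.11, adjusted p = 0.0033). Most of the second rise lay between 14.5 and 20 months (0.36, SE 0.11, adjusted p = 0.013). That call was lost without wt mouse 1 of 20 months (0.29, adjusted p = 0.053), without quantile normalisation, and with the median of both probe sets (0.10, adjusted p = 0.68). The other probe set, 1419758_at, also rose to 4.5 months (0.58, adjusted p = 0.019), but fell by 0.56 from 4.5 to 9 months (adjusted p = 0.038), rose by 0.93 from 9 to 14.5 months (adjusted p = 9.6e-04) and had a difference of -0.17 from 14.5 to 20 months (adjusted p = 0.61). For this probe set 20 months differed from 4.5 months by 0.19 (adjusted p = 0.52), and with the median of both probe sets by 0.31 (adjusted p = 0.097).

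Kdr encodes VEGF receptor 2, through which VEGF drives endothelial growth. At 10 days the lowest, median and highest signals were 8.56, 8.80 and 8.89. At 4.5 months they were 7.09, 7.37 and 7.70, and the highest value on any older array was 7.98, a Tg mouse of 20 months. Kdr was 2.62-fold lower at 4.5 months than at 10 days (log2 difference -1.39, SE 0.14, adjusted p = 8.1e-10). A rise of 0.37 from 9 to 14.5 months (SE 0.15, adjusted p = 0.037) lost its call under several alternatives, and 20 months differed from 4.5 months by 0.20 (95% interval -0.09 to 0.50). Kdr, like Cldn5, was highest at 10 days. The lowest mean was at 9 months in Kdr and at 14.5 months in Cldn5, but neither differed from the next lowest age beyond its spread. By limma the difference was 0.11 from 4.5 months in Kdr (adjusted p = 0.56) and 0.07 from 20 months in Cldn5 (adjusted p = 0.61).

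Flt1 encodes VEGF receptor 1, which binds VEGF tightly and, in its soluble form, holds it away from Kdr. Its signals were 8.18 to 8.50 at 10 days with a median of 8.38, and 8.78 to 9.42 at 4.5 months with a median of 9.20. These ranges did not overlap, while those of 9 months (8.0 to 8.89) and 20 months (8.20 to 8.94) overlapped both, and that of 14.5 months (8.23 to 8.78) ended just below the range at 4.5 months. Flt1 rose by 0.78 to 4.5 months (SE 0.13, adjusted p = 8.5e-06) and fell by 0.69 from 4.5 to 9 months (SE 0.14, adjusted p = 1.4e-04). Hence the difference of 20 from 4.5 months was -0.50 (SE 0.14, adjusted p = 0.0039), but of 20 from 9 months 0.18 (SE 0.14, adjusted p = 0.29). The Gapdh ratio was highest at 4.5 months, and its part in the peak of Flt1 was not tested.

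The 4 probe sets of Flt1 did not move alike. To 4.5 months 1419300_at rose by 1.40 (SE 0.12, adjusted p = 1.1e-11) and 1440926_at by 0.36 (SE 0.16, adjusted p = 0.046), whereas 1454037_a_at fell by 0.42 (SE 0.16, adjusted p = 0.024). At 9 months all 4 means were below those at 4.5 months, with 1454037_a_at not passing (-0.28, adjusted p = 0.17). At 20 months 1440926_at was below its level at 4.5 months by 0.11 (adjusted p = 0.64) and 1454037_a_at above by 0.14 (adjusted p = 0.54). The mean of 1419300_at was 9.26 at 4.5 and 8.69 at 20 months. Deviations of the arrays from their group means gave Pearson's r of -0.17 to 0.42 between these probe sets, 31 arrays sharing all probe sets, beside 0.34 to 0.61 between those of Slc2a1.

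**Figure D3:**
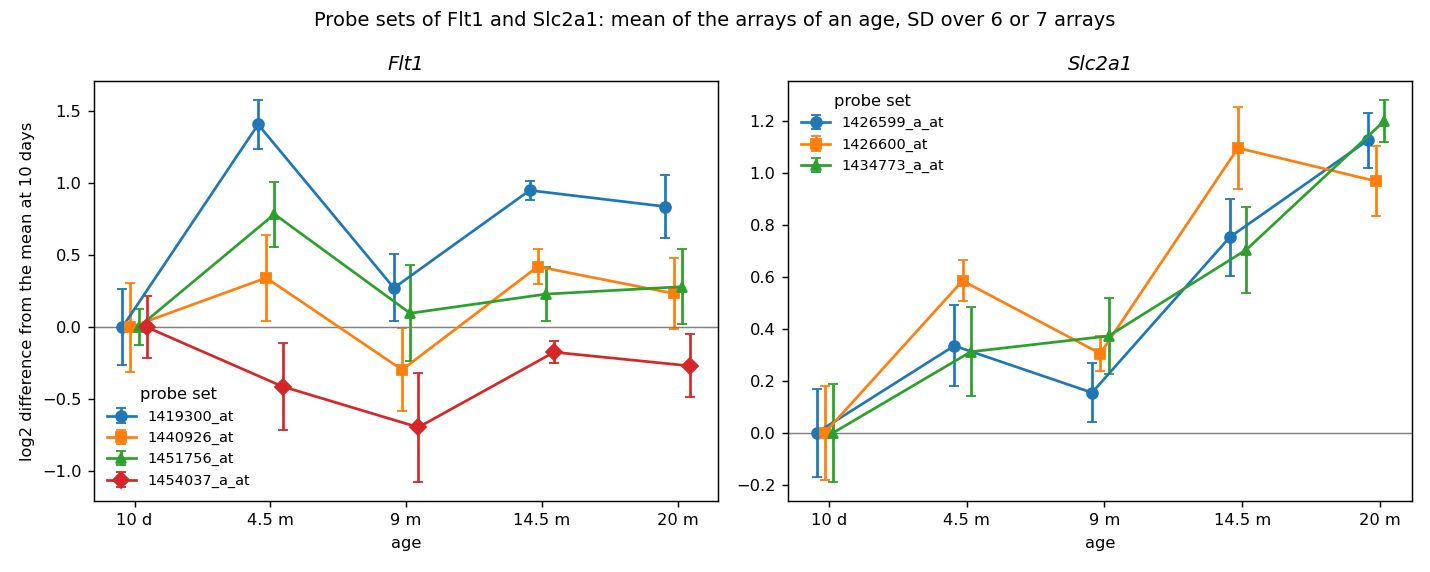
Mean log2 difference from 10 days for each probe set of Flt1 (left) and Slc2a1 (right) by age, with bars for the SD over the 6 or 7 arrays of an age. In Flt1 the probe set 1454037_a_at lay below its level at 10 days at each later age and 1419300_at above it, and in Slc2a1 all 3 lay above.

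Tek encodes TIE2, the receptor of the angiopoietins. The lowest, median and highest signals were 8.31, 8.64 and 8.88 at 10 days, and 8.26, 8.37 and 8.59 at 4.5 months, overlapping ranges with a difference of -0.22 (SE 0.11, adjusted p = 0.079). This difference passed by limma without Tg mouse 1 (-0.27, adjusted p = 0.0498) or wt mouse 4 (-0.26, adjusted p = 0.048) of 10 days. It also passed without Tg mouse 1 of 4.5 months (-0.27, adjusted p = 0.048) or Tg mouse 2 of 9 months (-0.22, adjusted p = 0.031). At 9 months the lowest was 7.40, the median 8.08 and the highest 8.22, below all arrays at 4.5 months. Tek fell by 0.38 from 4.5 to 9 months (SE 0.11, adjusted p = 0.0074) and rose by 0.49 from 9 to 14.5 months (SE 0.11, adjusted p = 6.8e-04). At 9 months the beta-actin ratio stood apart, and its part in this dip was not tested. At 20 months Tek was below 10 days by -0.35 (SE 0.11, adjusted p = 0.0083).

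Pecam1 encodes the adhesion molecule CD31 of endothelial cell contacts, also found on platelets and leukocytes. Its signal had a median of 8.15 at 10 days (range 7.55 to 8.43), 7.57 at 4.5 months (7.31 to 7.89) and 7.20 at 9 months (6.88 to 8.18). At 14.5 months the median was 8.09 and the range 7.76 to 8.24. Pecam1 fell by 0.55 to 4.5 months (SE 0.16, adjusted p = 0.0032), a value that became -0.34 (adjusted p = 0.063) without quantile normalisation, and rose by 0.75 from 9 to 14.5 months (SE 0.16, adjusted p = 3.3e-04). The difference of 14.5 months from 10 days was -0.07 (adjusted p = 0.73). Of the platelet markers 3 were measured, and 2 of them fell to 4.5 months, Gp1bb by 1.33 (SE 0.09, adjusted p = 3.8e-13) and Pf4 by 1.03 (SE 0.23, adjusted p = 3.3e-04), their part in the fall of Pecam1 and Vwf being not tested. The summed level of the 3 platelet markers, as a mean, was 8.60 to 8.92 at 10 days and 7.47 to 8.20 at later ages.

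Vwf encodes von Willebrand factor, stored by endothelial cells and platelets and released for clotting. Its lowest, median and highest signals were 8.24, 8.55 and 9.02 at 10 days, 6.72, 7.03 and 8.02 at 4.5 months, and 7.78, 8.68 and 9.06 at 20 months. A wt mouse gave the 8.02, and the other 5 arrays at 4.5 months were at or below 7.18. Vwf fell 2.71-fold to 4.5 months (log2 difference -1.44, SE 0.22, adjusted p = 1.9e-06) and rose 2.69-fold from there to 20 months (1.43, SE 0.23, adjusted p = 9.7e-06). The part of the rise that passed in a single step lay between 4.5 and 9 months (0.84, SE 0.23, adjusted p = 0.0033). At 20 months Vwf was at its level of 10 days, with a difference of -0.01 (95% interval -0.46 to 0.44).

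Erg encodes an ETS transcription factor of endothelial cells and was the member nearest to the array median. Its signal ran from 6.80 to 7.66 at 10 days (median 7.61) and from 4.97 to 6.93 at 4.5 months (median 6.37). Among the later arrays 1 Tg mouse at 20 months reached 7.21, and the other 23 were at or below 6.97. The fall to 4.5 months was 2.58-fold (log2 difference -1.37, SE 0.29, adjusted p = 1.6e-04). The rise from 9 to 14.5 months of 1.07 (SE 0.30, adjusted p = 0.0041) is a mean of both genotypes, while the wt mice alone had 6.58 to 6.97 at 9 months and 5.75 to 6.76 at 14.5 months. The second probe set, 1425370_a_at, gave 2.05 to 3.68 on the 31 arrays, was not tested and shows no level of its own.

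From 4.5 to 20 months 4 of the 10 genes rose, Vwf, Slc2a1, Abcb1a and Ocln, beside 22.4% of all genes. With the median of its probe sets Abcb1a did not pass by limma (0.31, adjusted p = 0.097), and Ocln depended on single mice, as given above. Flt1 alone fell, by its brightest probe set but not by all of its probe sets, beside 19.9% of all genes. The median difference of the 10 was 0.34 and that of all genes 0.03. These calls depended on the age of reference. With 9 in place of 4.5 months Pecam1 rose by 0.56 to 20 months (adjusted p = 0.0069) and Erg by 1.09 (adjusted p = 0.0048). Flt1 then gave 0.18 and did not pass (adjusted p = 0.29). Split into steps, Vwf rose from 4.5 to 9 months (20.6% of all genes rose), and Tek and Flt1 fell (24.3%). From 9 to 14.5 months 6 of the 10 rose, Pecam1, Slc2a1, Tek, Kdr, Erg and Ocln, beside 26.3% of all genes, and 0 fell, beside 21.9%, by limma at an adjusted p under 0.05. The median was 0.35 for the 10 and 0.06 for all genes. With each gene's probe sets replaced by their median, Flt1 (0.55, adjusted p = 8.5e-05) and Abcb1a (0.49, adjusted p = 0.0078) also rose in this step. From 14.5 to 20 months Slc2a1 and Abcb1a rose (18.3% of all genes), and 0 of the 10 fell by limma (15.3%), Tek alone having an unadjusted p under 0.05 in that direction. Without quantile normalisation Tek fell in this step (-0.30, adjusted p = 0.035) and Abcb1a lost its rise (0.27, adjusted p = 0.058). The 9-month arrays enter the first 2 of these steps with opposite sign.

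**Figure D4:**
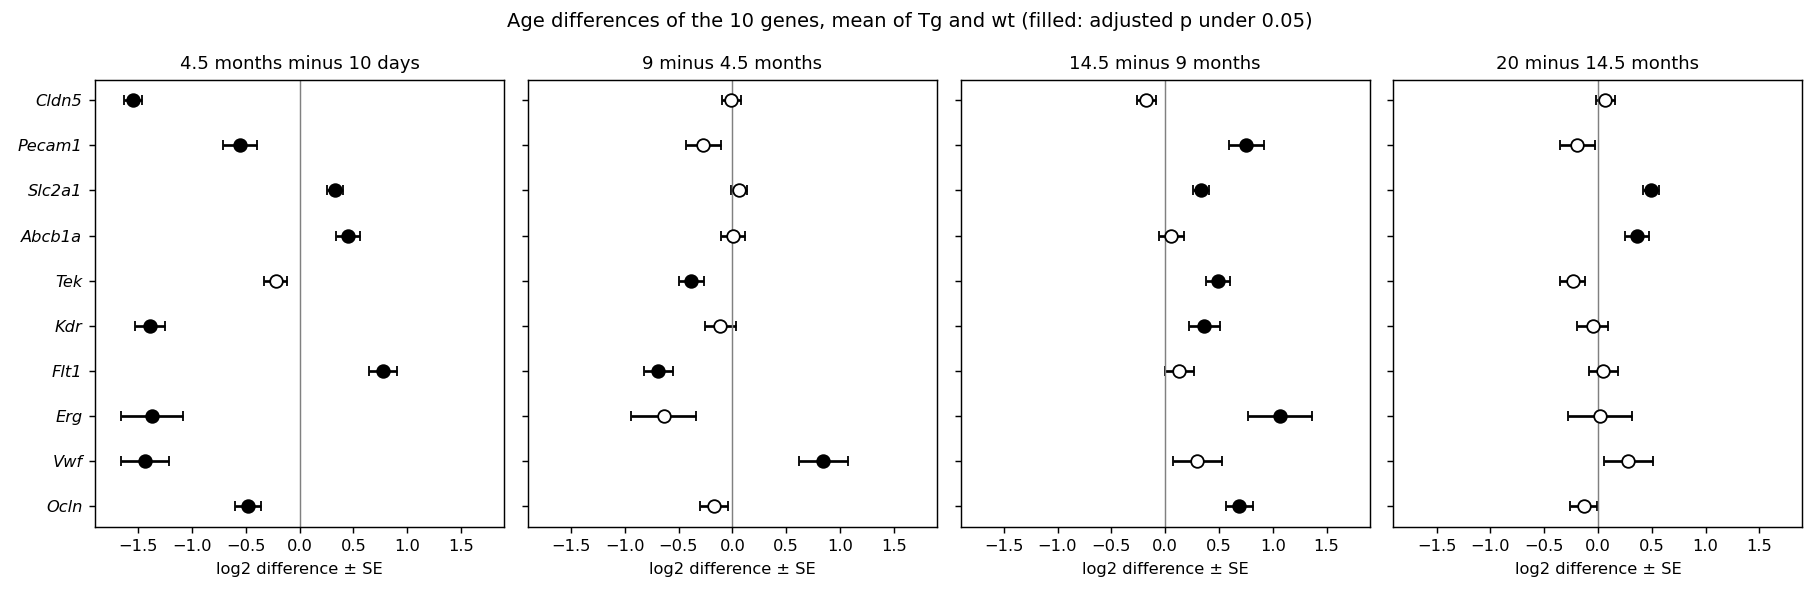
Log2 difference with SE of each of the 10 genes between neighbouring ages, mean of Tg and wt, from the limma model of all 31 arrays. Filled circles have an adjusted p under 0.05. In the first panel 6 filled circles lay to the left of 0 and 3 to the right, and in the third all 6 filled circles lay to the right.

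The mean of the 10 genes on an array was 8.82 to 9.06 at 10 days, 8.27 to 8.60 at 4.5 months, 7.74 to 8.56 at 9 months, 8.42 to 8.81 at 14.5 months and 8.60 to 8.83 at 20 months. At 9 months the 3 Tg mice had means from 7.74 to 8.29 and the 3 wt mice from 8.39 to 8.56, ranges that did not overlap. Without Erg the means of the remaining 9 genes were 8.20 to 8.67 in Tg and 8.57 to 8.74 in wt, ranges that overlapped. Pairs of members followed each other only in part within groups. Over the deviations of the 31 arrays from their group means, Pearson's r was above 0 in 30 of 45 pairs, with a median of 0.13 and a range from -0.37 (Cldn5 with Slc2a1) to 0.70 (Abcb1a with Vwf). Abcb1a with Tek had an r of 0.67. These are descriptions, since the arrays share their processing and the signals share RNA quality.

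Other genes of the vessel wall were counted in lists written from their known roles. Beside them stand the 31.2% of all genes that rose and the 35.5% that fell between 10 days and 4.5 months, and several lists lay near these shares. Of 23 measured genes of endothelial identity, 3 rose and 10 fell from 10 days to 4.5 months, with a median of -0.16 beside -0.04 for all genes. Cd93, a surface glycoprotein of growing vessels, fell by 1.78 (SE 0.17, adjusted p = 2.6e-10), and Esam, a junctional adhesion molecule, fell by 0.83 (SE 0.11, adjusted p = 1.1e-07). Adgrf5 rose by 1.00 (SE 0.12, adjusted p = 1.2e-08). Cdh5, the adherens junction cadherin of endothelium, had a difference of 0.08 (SE 0.18, adjusted p = 0.71). Among 17 transcription factors 7 rose and 5 fell, Ets2 by 0.70 (SE 0.07, adjusted p = 1.4e-09) upward, Sox7 and Ets1 downward by -1.29 (SE 0.18, adjusted p = 4.1e-07) and -0.89 (SE 0.14, adjusted p = 2.6e-06).

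Of 16 further junction genes 4 rose and 3 fell to 4.5 months. Jam3, a junctional adhesion molecule, rose by 0.78 (SE 0.09, adjusted p = 3.6e-09) and Tjp1, the scaffold ZO-1, by 0.36 (SE 0.06, adjusted p = 2.7e-06), while Cgn, the scaffold cingulin, fell by 1.21 (SE 0.24, adjusted p = 8.2e-05). Of 23 transport genes 4 rose and 12 fell, with a median of -0.38. Slc16a1, the carrier of lactate and ketone bodies, fell by 2.21 (SE 0.09, adjusted p = 6.0e-19). Slc7a1 and Slc7a5, carriers of amino acids, fell by 1.18 (SE 0.08, adjusted p = 1.2e-13) and 1.17 (SE 0.09, adjusted p = 3.7e-12). Slco1a4, a carrier of organic anions, rose by 1.497 (SE 0.10, adjusted p = 7.3e-14), as did Slc2a1 and Abcb1a.

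In the VEGF and angiopoietin list 4 genes rose and 12 fell of 27, with a median of -0.42. The apelin receptor gene Aplnr fell by 5.44 (SE 0.42, adjusted p = 1.9e-12) and Vegfb, a ligand of Flt1, rose by 0.87 (SE 0.08, adjusted p = 4.5e-11). Of 16 Wnt genes 4 rose and 6 fell. The targets Apcdd1 and Axin2 went opposite ways, with differences of -1.25 (SE 0.09, adjusted p = 1.4e-12) and 1.07 (SE 0.10, adjusted p = 6.6e-11), and the ligand Wnt7a fell by 1.04 (SE 0.12, adjusted p = 1.3e-08). In the basement membrane list 7 of 12 fell and 2 rose, the collagen chains Col4a1 by -1.62 (SE 0.08, adjusted p = 3.3e-17) and Col4a2 by -1.14 (SE 0.09, adjusted p = 2.9e-12) among the fallen. Of 15 genes of pericytes and smooth muscle 7 fell and 1 rose, with Rgs5 at -0.65 (SE 0.07, adjusted p = 9.1e-09). In the list of vesicle transport and activation 4 of 10 fell and 1 rose, and Cav1, which forms caveolae, fell by 0.96 (SE 0.11, adjusted p = 2.0e-08). Fibroblast markers fell as well, 5 of 10 with 1 risen, and their mean was 8.66 to 10.12 at 10 days and 8.22 to 8.82 at 4.5 months. Over the same interval 9 of 9 oligodendrocyte markers and 8 of 10 neuronal markers rose. Of 10 astrocyte markers 6 rose and 3 fell, and of 10 microglial markers 7 rose and 2 fell. The part of these other cells in the differences of the 10 genes was not tested.

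**Figure D5:**
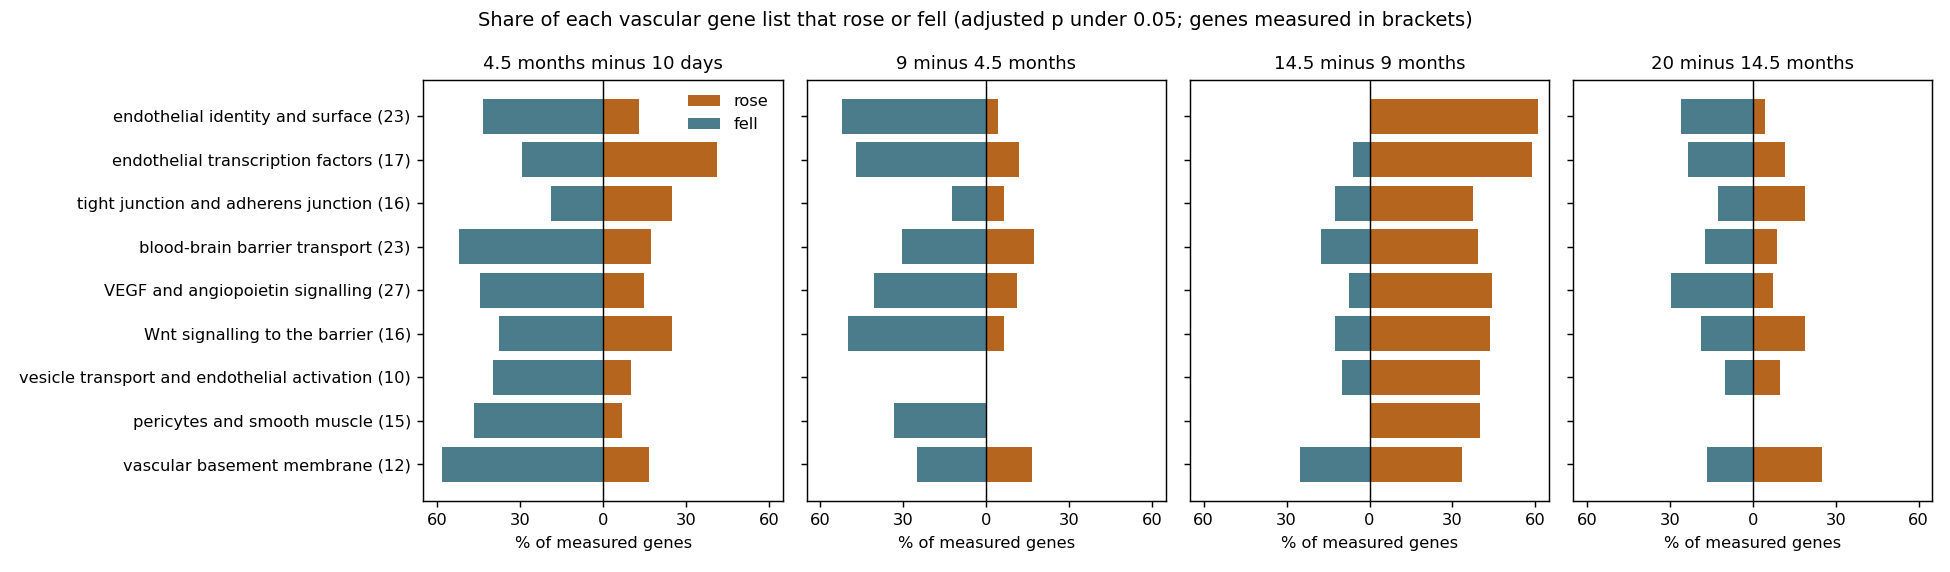
Share of the measured genes of 9 vascular lists that rose (right, brown) or fell (left, blue-green) between neighbouring ages at an adjusted p under 0.05, with the number measured in brackets. In the third panel, 14.5 minus 9 months, 14 of 23 identity genes rose and 0 fell, and in the second, 9 minus 4.5 months, 12 fell and 1 rose.

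The steps into and out of 9 months were counted in the same lists. From 4.5 to 9 months 24.3% of all genes fell and 20.6% rose, and from 9 to 14.5 months 26.3% rose and 21.9% fell. Of 23 identity genes 12 fell and 1 rose in the first step, and 14 rose and 0 fell by limma in the second. Rasip1, which acts in vessel lumen formation, fell by 1.33 (SE 0.14, adjusted p = 1.3e-08) and then rose by 1.42 (SE 0.14, adjusted p = 3.3e-09). Notch4, a receptor of endothelial cells, fell by 1.68 (SE 0.18, adjusted p = 6.6e-09) and rose by 1.88 (SE 0.18, adjusted p = 7.1e-10). Sox17, an arterial transcription factor, fell by 0.98 (SE 0.12, adjusted p = 6.3e-08) and rose by 0.76 (SE 0.12, adjusted p = 3.3e-06). Of 17 transcription factors 2 rose and 8 fell in the first step, and 10 rose and 1 fell in the second. In the VEGF list 3 of 27 rose and 11 fell, and then 12 rose and 2 fell. Of 16 Wnt genes 1 rose and 8 fell, and then 7 rose and 2 fell. Pericyte genes had 5 of 15 fallen and then 6 risen, with 0 called the other way by limma in either step. In the first step 1 junction gene rose and 2 fell of 16, 4 transport genes rose and 7 fell of 23, and 2 basement membrane genes rose and 3 fell of 12. In the second these counts were 6 and 2, 9 and 4, and 4 and 3. In the vesicle list 0 of 10 passed in the first step by limma, and 4 rose and 1 fell in the second. Among fibroblast markers 1 rose and 1 fell of 10 in the first step, and 4 rose in the second, with array means of 7.51 to 9.40 at 9 months and 7.80 to 9.68 at 14.5 months. The beta-actin ratio was highest at 9 months and the highest array signal was lowest at 14.5 months, as given above. The part of either was not tested. From 14.5 to 20 months 18.3% of all genes rose and 15.3% fell. In this step 1 identity gene rose and 6 fell of 23, and 2 VEGF genes rose and 8 fell of 27. Of 17 transcription factors 2 rose and 4 fell, and of 23 transport genes also 2 and 4. Risen and fallen were 3 and 2 of 16 junction genes, 3 and 3 of 16 Wnt genes. In the basement membrane list they were 3 and 2 of 12, and in the vesicle list 1 and 1 of 10. By limma 0 of 15 pericyte genes passed. Counts for 4.5 to 20 months leave out the 9-month arrays, and 22.4% of all genes rose there while 19.9% fell. They were 3 risen and 6 fallen of 23 identity genes, and 3 and 6 of 23 transport genes. Of 16 junction genes 5 rose and 1 fell.

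Whether neuronal over-expression of Glud1 altered these genes was asked at each age. At 10 days, 4.5, 14.5 and 20 months 0 of the 10 differed between Tg and wt by limma at an adjusted p under 0.05, beside 0.00779%, 0%, 0% and 0.0389% of all genes. Averaged over the 5 ages 0 of 10 passed, beside 0.0156% of all genes, and in the F-test of genotype by age 0 of 10 passed, beside 0.0623%. At 9 months 1 of 10 passed, Erg, beside 2.99% of all genes.

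For Erg at 9 months the 3 Tg mice gave 3.82, 3.54 and 4.86 and the 3 wt mice 6.58, 6.97 and 6.78. The deposited signals behind them were 16.4, 14.0 and 39.8 in Tg and 118, 130 and 122 in wt, beside array medians of 131 to 140 in Tg and 120 to 136 in wt. All 3 Tg values and 2 of the 3 wt values lay below the median of their array. The groups did not overlap, and the difference was -2.70 (SE 0.43, adjusted p = 9.4e-04). After adding 50 to each signal, which damps low values, it was -1.23 (adjusted p = 0.0042). Fitted on the 6 arrays of 9 months alone, the same difference had an adjusted p of 0.25. At the other ages the groups overlapped or differed by at most 0.70, in the opposite direction at 20 months (Tg 7.21, 6.66 and 6.70, wt 6.28, 5.92 and 6.29, adjusted p = 1). The genotype by age F-test gave Erg an adjusted p of 0.057, the smallest of the 10 and above the threshold. Beside Erg, the same Tg mice had beta-actin ratios of 0.71 to 0.76 and the wt mice 0.77 to 0.96. Fibroblast marker means were 7.83 to 8.84 in Tg and 7.51 to 9.40 in wt. Their part in the Erg difference was not tested.

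Cldn5 had the smallest p of the 10 for the mean genotype difference, -0.23 (SE 0.06, unadjusted p = 2.3e-04, adjusted p = 0.21), which did not pass. At 14.5 months its signals were 9.24, 9.22 and 8.87 in Tg and 9.71, 9.46 and 9.60 in wt, groups that did not overlap. That difference was -0.49 (95% interval -0.74 to -0.23, adjusted p = 1), and the one at 4.5 months -0.38 (95% interval -0.64 to -0.13, adjusted p = 0.65). At 10 days the sign was the other way, 0.08 (95% interval -0.16 to 0.32). For the remaining 8 genes besides Erg the mean genotype difference lay between -0.13 (Pecam1) and 0.07 (Flt1), and their 95% intervals reached at most to -0.40 (Vwf) and 0.24 (Flt1). Slc2a1 had -0.01 (95% interval -0.10 to 0.09), a mean over ages with opposite signs. At 14.5 months its signals were 11.50 to 11.80 in Tg and 11.32 to 11.46 in wt. Those of both other probe sets were also higher in Tg there, without overlap. At 10 days 1426599_a_at was 10.06 to 10.11 in Tg and 10.25 to 10.47 in wt, and 1426600_at 9.41 to 9.63 and 9.71 to 9.96. The genotype by age F-test gave adjusted p of 0.46 for the brightest probe set, 0.19 for 1426599_a_at and 0.37 for 1426600_at. Pecam1 at 9 months was 7.10, 6.95 and 6.88 in Tg and 8.18, 7.36 and 7.30 in wt, without overlap, and its difference of -0.64 (SE 0.23) had an adjusted p of 0.12.

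In the 9 vascular lists 4 of 158 measured genes passed between Tg and wt at 9 months, 2.53% beside 2.99% of all genes, a share no higher than the background. Angpt1, an angiopoietin and ligand of Tek, was lower in Tg by -0.69 (SE 0.20, adjusted p = 0.049), and Vegfb by -0.39 (SE 0.11, adjusted p = 0.049). Cav2, a partner of Cav1 in caveolae, differed by -0.55 (SE 0.10, adjusted p = 0.003), and the pericyte gene Ndufa4l2 by 1.26 (SE 0.35, adjusted p = 0.04). Averaged over the 5 ages 0 genes of these 9 lists passed by limma.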

How the data were processed

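Total RNA of hippocampus from 31 mice was hybridised to Affymetrix mouse genome arrays, 1 mouse for each array. The deposited values are linear signal intensities, made by the authors with MAS5 per the labels, whose version and settings are not given in the sources used here. The paper describes RMA values, which were not used here. No detection calls were used, and the number of arrays limits the precision.

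After 64 control probe sets were set aside, signals were turned to log2 and quantile normalised. Probe sets above their array median on at least 3 arrays were tested (26877). Limma 3.58.1 in R 4.3.3 fitted a mean for each of 10 groups, with moderation by trend and robustly. Symbols came from the platform annotation (34945 probe sets with a single gene, 932 with several, 9160 with none), updated by gene identifier for 34741. The model was tested on simulated data. Members and lists were chosen with earlier results of these data known. Named list genes are among those with the smallest p in a contrast, apart from Cdh5 and Esam and the genes called between genotypes, named after their values were seen. Alternatives concerned normalisation, an offset, filters, moderation, a replicate block, thresholds, probe sets, ages compared and leaving out each mouse. For the adult steps and for genotype at each age they were chosen after seeing the data, except for the fit of each age alone, which was planned.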

Additional observations from a re-analysis of the deposited data

How the results depend on the processing

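The 10 genes were recounted under each alternative. For Tg against wt at 9 months the count of 1 became 0 with the filter at the 60th percentile, which leaves out Erg, and 0 with the arrays of 9 months fitted alone. From 14.5 to 20 months the count of 2 became 1 at a fold of 1.3 and an adjusted p of 0.01, 1 with each gene's probe sets replaced by their median, and 1 to 2 when each mouse was left out in turn (1 without wt mouse 1 of 20 months). In the genotype by age F-test 1 gene, Erg, passed with the median over probe sets (adjusted p = 0.033), and 0 to 1 when each mouse was left out, with 1 without Tg mouse 1 of 10 days, Tg mouse 2 or 3 or wt mouse 1 of 4.5 months, or Tg mouse 3 of 9 months. With 14.5 months in place of 4.5 months, an alternative added after seeing the data, 5 genes differed from 10 days where 9 had at 4.5 months, and Ocln turned from falling to 0.042. Slc2a1 from 4.5 to 9 months turned to -0.18 with the median over probe sets (adjusted p = 0.018), and Flt1 with 9 in place of 4.5 months to 0.18 against 20 months. Kdr lost its rise from 9 to 14.5 months in 9 settings. Calls were also gained by limma when a mouse was left out. From 4.5 to 9 months Erg fell without Tg mouse 2 (-0.93, adjusted p = 0.0082) or wt mouse 2 (-0.83, adjusted p = 0.028) of 4.5 months. Erg also fell there without Tg mouse 3 of 9 months (-0.83, adjusted p = 0.027). Without wt mouse 1 of 9 months Pecam1 fell in that step (-0.41, adjusted p = 0.032) and Cldn5 in the next (-0.22, adjusted p = 0.04999). Without quantile normalisation the median of all probe sets shifted from 0.01 to 0.14 between 10 days and 4.5 months. Replicate numbers did not pair the samples (0 of 15 same-numbered pairs had r over 0.1, range -0.11 to 0.05), and with a replicate block the 9-month genotype count over all probe sets went from 934 to 807, with the Erg difference at -2.70 (adjusted p = 0.0019). The causes were not tested.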

Other observations

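Over the deviations of the 31 arrays from their group means, the genes most like Abcb1a were Atp13a5 (Pearson's r = 0.87), Adgra2 (0.85) and Rcsd1 (0.81). Those most like Vwf were Apod (0.86), Vtn (0.86) and Gjb2 (0.85), those most like Kdr Plekhg1 (0.81), Gpr75 (0.76) and Prkcb (0.72), and those most like Flt1 Smad7 (0.80), Nxpe4 (0.76) and Rab9 (0.74). Tjp1 (0.73) and Pdgfrb (0.72) were among the 3 genes most like Tek, and Dscaml1 (0.77), Uaca (0.73) and Slc9a2 (0.70) were the most like Cldn5. For Pecam1 the most alike was Kctd15 (0.72), for Slc2a1 Cdc14a (0.72), for Erg 2610001J05Rik (0.77) and for Ocln Tax1bp3 (0.78). Over the means of the 10 groups the mean of the 10 genes was most like Vim (0.97). These values are descriptions over arrays that share their processing, picked as the highest among 12844 genes.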
